A study of Mus musculus with 8 samples.

Results

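The genes described here encode the constant regions of the immunoglobulin chains, which set the isotype of an antibody, and the J chain, which joins IgM and IgA units into polymers. They were taken by name from a list of 10 genes, and 9 of them (Ighm, Igha, Ighg1, Ighg2b, Ighg2c, Ighg3, Igkc, Iglc2 and Jchain) were measured among the 41214 genes of the count files. Ighd, which encodes the constant region of IgD, could not be matched to an identifier in the files and was not analysed here, so the unswitched side is Ighm alone. The libraries came from total bone marrow of 8 C57Bl6 mice in 4 groups of 2: young KD (39 and 42 days), young KO (48 and 44 days), old KO (158 and 101 days) and sick KD (187 and 78 days). KO mice lack the transcription repressor Gfi1. KD mice express human GFI1 in its place, from a cDNA inserted at the locus, at a level held down by an antisense selection cassette (neo, flanked by loxP sites). No mouse in these groups had a wild-type Gfi1 locus. The sick KD mice are marked as AML in the labels and described by the study as having a myeloproliferative neoplasm, while the other 3 groups were healthy. Disease and genotype cannot be told apart between old KO and sick KD, nor disease and age between sick KD and young KD. Both young KO mice were older than both young KD mice, so genotype and age cannot be told apart there either.

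A B cell begins with IgM, in which the variable region is joined to the Ighm constant region. Class switch recombination then deletes the intervening DNA and brings one of the downstream genes, Ighg3, Ighg1, Ighg2b, Ighg2c, Ighe or Igha, next to the same variable region, so that a switched cell makes IgG, IgE or IgA. Plasma cells, the antibody-secreting end stage of the lineage, settle in bone marrow and carry far more immunoglobulin mRNA per cell than B cells do.

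The opening 90 coding bases of the constant regions are shown because the counts of the IgG subclasses can be told apart only where their sequences differ. They were read from GENCODE M21 transcripts on GRCm38, minus strand, at chr12:113422641-113422730 (Ighm), chr12:113260147-113260236 (Igha), chr12:113330434-113330523 (Ighg1), chr12:113307844-113307933 (Ighg2b), chr12:113288843-113288932 (Ighg2c) and chr12:113361143-113361232 (Ighg3), all inside the opening constant exon of each gene. Capitals in Ighg2b, Ighg2c and Ighg3 mark bases that differ from Ighg1 at the same position.
Ighm: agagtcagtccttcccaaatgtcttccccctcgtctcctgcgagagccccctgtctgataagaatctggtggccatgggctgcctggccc
Igha: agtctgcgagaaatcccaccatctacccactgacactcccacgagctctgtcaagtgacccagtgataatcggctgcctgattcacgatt
Ighg1: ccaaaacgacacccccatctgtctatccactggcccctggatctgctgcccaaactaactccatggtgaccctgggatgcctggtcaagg
Ighg2b: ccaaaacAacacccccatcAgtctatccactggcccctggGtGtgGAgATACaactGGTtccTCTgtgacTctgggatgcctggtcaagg
Ighg2c: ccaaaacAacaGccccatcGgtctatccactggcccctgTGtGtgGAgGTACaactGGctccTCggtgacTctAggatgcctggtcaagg
Ighg3: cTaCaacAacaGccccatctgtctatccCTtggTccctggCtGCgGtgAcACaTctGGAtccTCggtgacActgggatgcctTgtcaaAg
Over the 291 bases of this exon, identity between IgG subclasses ran from 78.4% (Ighg2c with Ighg3) to 88.3% (Ighg1 with Ighg2b). Of all 50-base windows of the gene models, 0.393% of Ighg1, 4.15% of Ighg2b, 5.49% of Ighg2c and 1.58% of Ighg3 also occurred in another IgG gene. Ighm, Igha and Igkc shared none, and 7.65% of the windows of Iglc2 occurred in another annotated gene, so its count carries the largest uncertainty of assignment. Counts were made per gene, so membrane and secreted forms of a chain, and germline transcripts of a constant gene that has not been switched to, were not separated.

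The libraries held 26642067 to 42679114 counts on genes, and every one of the 9 genes had at least 83 counts in each library. Reads outside annotated genes made up 42.0% and 38.8% of unique alignments in sick KD against 26.9% to 33.8% in the other 6 libraries. Gfi1 itself was counted at 13.3 to 29.7 CPM in the libraries labelled KO and at 5.49 to 7.15 CPM in those labelled KD, so it does not check the labels, on which all directions below rest. The 2 sick KD libraries differed 4.09-fold in Ighm, 4.61-fold in Ighg2b and 4.60-fold in Ighg2c, but 1.03-fold in Jchain, with the other genes between. In bulk marrow a lower value from fewer cells of a type and one from less RNA per cell cannot be told apart.

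Levels are given as CPM, the count of a gene scaled to a common library total with TMM factors over all 8 libraries, with replicate 1 before replicate 2. Ighm, the unswitched heavy chain at chr12:113418558-113422730, stood at 1272 and 1356 CPM in young KD, 864 and 967 CPM in young KO, 1738 and 813 CPM in old KO, and 164 and 671 CPM in sick KD. Every sick KD library was below all others, old KO spanned both sides of young KO, and the highest and lowest libraries differed 10.6-fold.

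The switched heavy chains ranged more widely. Ighg1 stood at 6.82 and 17.4 CPM in young KD, 105 and 59.9 CPM in young KO, 347 and 547 CPM in old KO, and 143 and 97.8 CPM in sick KD. Ighg2b stood at 42.4 and 77.7 CPM in young KD, 238 and 214 CPM in young KO, 1598 and 1042 CPM in old KO, and 640 and 139 CPM in sick KD. For both of these IgG genes the young KD libraries were the lowest of the 8 and the old KO libraries the highest, with young KO and sick KD overlapping between them.

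Ighg2c, the IgG2a-type gene of the C57BL strains, stood at 40.6 and 60.0 CPM in young KD, 94.5 and 177 CPM in young KO, 1368 and 313 CPM in old KO, and 381 and 82.8 CPM in sick KD. Its old KO and sick KD libraries overlapped, and within each of those groups the replicates differed 4.37-fold and 4.60-fold. Ighg3 stood at 3.99 and 2.50 CPM in young KD, 6.52 and 11.1 CPM in young KO, 365 and 55.7 CPM in old KO, and 4.44 and 3.84 CPM in sick KD. It was the only switched IgG gene for which the young KO libraries were above the sick KD libraries without overlap. Its old KO replicates differed 6.56-fold, yet the lower of them was 12.5-fold above the higher sick KD library.

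Igha, the heavy chain of IgA, stood at 33.1 and 7.90 CPM in young KD, 38.6 and 58.7 CPM in young KO, 298 and 163 CPM in old KO, and 35.9 and 16.1 CPM in sick KD. The old KO libraries were above all others and the young KO libraries came next, above young KD and sick KD, which overlapped. The young KD replicates differed 4.19-fold.

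Igkc, the kappa light chain at chr6:70726435-70726966, stood at 166 and 219 CPM in young KD, 201 and 205 CPM in young KO, 1313 and 654 CPM in old KO, and 321 and 201 CPM in sick KD. Iglc2, a lambda light chain at chr16:19198396-19200351, stood at 18.0 and 19.6 CPM in young KD, 19.1 and 17.3 CPM in young KO, 29.8 and 23.1 CPM in old KO, and 3.71 and 5.16 CPM in sick KD. The light chains thus parted in sick KD, where Igkc overlapped the young KD and young KO levels and Iglc2 was below every other library. Jchain, at chr5:88519809-88527891, stood at 86.9 and 142 CPM in young KD, 82.9 and 103 CPM in young KO, 533 and 259 CPM in old KO, and 108 and 105 CPM in sick KD. Only its old KO libraries stood clear of the remaining 6.

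**Figure D1:**
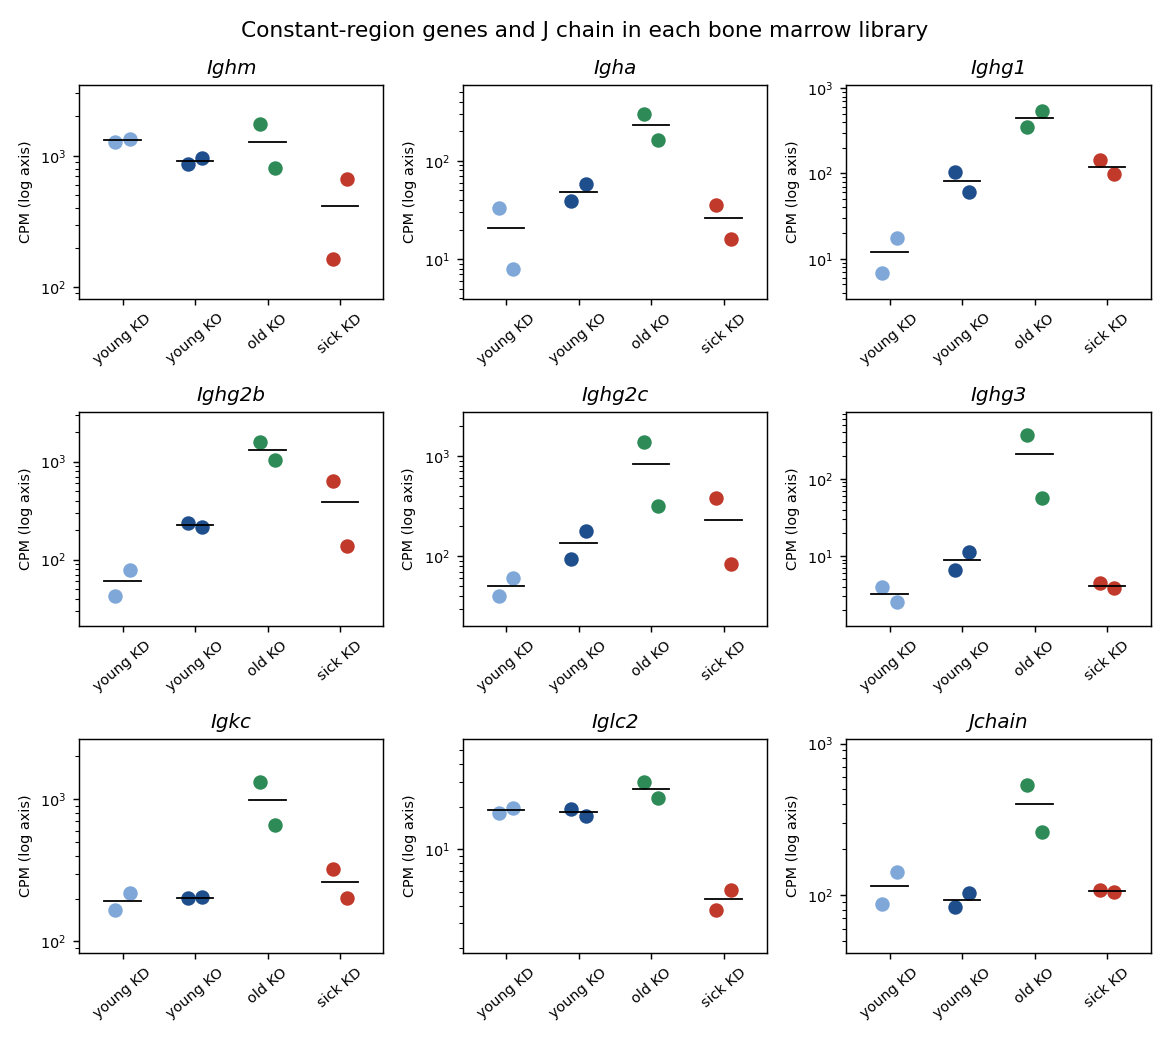
CPM of the 9 genes (log axis) in each library, with 2 points per group and the group mean as a line. By group mean, old KO was the highest for 8 of the 9 genes, sick KD was the lowest for Ighm and Iglc2, and young KD was the lowest for the IgG genes. For Ighg3 the young KD and sick KD libraries overlapped.

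Compared per length of exonic sequence, as CPM per kb averaged over the 8 libraries, the order of levels was Igkc (771), Ighm (520), Ighg2c (237), Ighg2b (186), Jchain (70.5), Ighg1 (63.9), Igha (30.5), Iglc2 (27.8) and Ighg3 (22.6). The order differed by group. In young KD, Ighm had 697 ± 31.5 CPM per kb (SD, n = 2) and Igkc 362 ± 70.4, whereas in old KO, Igkc had 1849 ± 875 and Ighm 676 ± 347. In old KO the per-length levels of Ighg2c (634 ± 562), Ighm and Ighg2b (493 ± 147) did not differ beyond their spread.

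In young healthy mice, the marrow of KO was set against that of KD to see whether the constant genes already differed without disease. The KO mice (48 and 44 days) were both older than the KD mice (39 and 42 days), so genotype and age cannot be told apart here. None of the 9 genes passed an adjusted p of 0.05 in edgeR's quasi-likelihood test, against 0.0404% of the 14839 genes tested, and 5 of the 9 had an unadjusted p under 0.05. The IgG genes nevertheless sat higher in KO in each library, with log2 fold changes of 2.78 ± 0.47 for Ighg1 (SE, adjusted p = 0.747), 1.91 ± 0.27 for Ighg2b (adjusted p = 0.465), 1.43 ± 0.32 for Ighg2c and 1.43 ± 0.34 for Ighg3 (adjusted p = 0.999987 for both). Ighm had -0.53 ± 0.09 (adjusted p = 0.747), and its young KO libraries were below its young KD libraries. The light chains and Jchain overlapped between the groups, at 0.07 ± 0.13 for Igkc, -0.05 ± 0.11 for Iglc2 and -0.30 ± 0.23 for Jchain. Libraries of the groups did not overlap for 6 of the 9 genes, as was the case for 27.0% of all genes tested. The median log2 fold change was 1.23 over the 9 genes and -0.00616 over all genes. DESeq2 called 3 of the 9 genes here and a filter of 1 count called 6. Without young KD replicate 2, 1 gene passed (Ighg2b, 2.41, adjusted p = 0.0124), so the young difference depended on the tool, the filter and this library.

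Sick KD was set against young KD to follow the genes into disease, and here the heavy chains and light chains each split. Ighg1 rose by a log2 fold change of 3.32 ± 0.43 (9.99-fold, adjusted p = 0.00759) and Ighg2b by 2.69 ± 0.69 (adjusted p = 0.0386). Iglc2 fell, at -2.09 ± 0.20 (adjusted p = 0.00423). In all, 2 of the 9 genes rose and 1 fell, beside 9.45% and 11.4% of all 14656 genes tested. Ighm had -1.66 ± 0.57 (adjusted p = 0.0842) with sick KD below young KD in each library, and Ighg2c had 2.20 ± 0.64 (adjusted p = 0.0568). Igkc (0.43 ± 0.24), Ighg3 (0.34 ± 0.30), Igha (0.33 ± 0.64) and Jchain (-0.11 ± 0.22) had adjusted p-values of 0.238 to 0.753, and their libraries overlapped. Libraries did not overlap for 5 of the 9 genes, below the 66.7% seen over all genes. The median was 0.34 over the 9 genes and 0.0126 over all genes. Leaving out sick KD replicate 1 brought the log2 fold change of Ighg2b to 1.21 and that of Ighm to -0.97. Whichever library was left out, Ighm stayed negative (-3.01 to -0.97). Without sick KD replicate 2 or young KD replicate 1, 6 genes passed, and without young KD replicate 2, 5 passed. Igha changed sign without sick KD replicate 1 (-0.36) or young KD replicate 2 (-0.38), and Jchain without young KD replicate 2 (0.27).

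Old KO was set against young KO to follow the same genes in KO mice that stayed healthy. All 9 log2 fold changes were positive and 3 genes passed, all upward, beside 0.323% of 14847 genes tested that rose. Those were Ighg2b at 2.54 ± 0.22 (5.83-fold, adjusted p = 0.0188), Ighg1 at 2.44 ± 0.33 (adjusted p = 0.0430) and Igkc at 2.27 ± 0.32 (adjusted p = 0.0495). Igha (2.24 ± 0.34, adjusted p = 0.0599) and Jchain (2.09 ± 0.34, adjusted p = 0.0765) had changes of like size without passing. Ighg3 had the largest fold change and the largest error, at 4.58 ± 0.92 (adjusted p = 0.132), and Ighg2c had 2.63 ± 0.70 (adjusted p = 0.265). Iglc2 (0.54 ± 0.15, adjusted p = 0.288) and Ighm (0.48 ± 0.34, adjusted p = 0.802) had the smallest values. Libraries did not overlap for 8 of the 9 genes, all but Ighm, against 37.7% of all genes. The median was 2.27 over the 9 genes and -0.000634 over all genes. The calls depended on the fit and on single libraries. With all 8 mice in 1 fit Ighg1 (adjusted p = 0.0642) and Ighg2b (adjusted p = 0.154) did not pass, and Igkc did not pass with a filter of 10 counts, with library sizes free of immunoglobulin genes or with GC and length trends removed (adjusted p = 0.0522 to 0.0558). None of the 9 passed without young KO replicate 2, 5 without old KO replicate 1 and 8 without old KO replicate 2, and Igkc lost its call without either young KO replicate. The fold changes themselves stayed positive in the fits without 1 library except for Ighm without old KO replicate 1 (-0.17).

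Old KO and sick KD, the older mice of the 2 genotypes, had log2 fold changes of one sign for all 9 genes, with old KO higher. Of these, 6 rose past the threshold and none fell, beside 9.93% and 8.22% of 14470 genes. Ighg3 had the largest log2 fold change, 5.67 ± 0.89 (50.9-fold, adjusted p = 0.0100), followed by Igha at 3.15 ± 0.43 (8.90-fold, adjusted p = 0.00677) and Iglc2 at 2.58 ± 0.23 (5.96-fold, adjusted p = 0.00395). Igkc (1.92 ± 0.36, adjusted p = 0.0165), Jchain (1.90 ± 0.31, adjusted p = 0.0115) and Ighg1 (1.89 ± 0.27, adjusted p = 0.00763) were 3.72-fold to 3.78-fold higher. The other 3 genes were Ighg2c (1.86 ± 0.82, adjusted p = 0.154), Ighg2b (1.77 ± 0.62, adjusted p = 0.0914) and Ighm (1.61 ± 0.63, adjusted p = 0.118), whose sick KD replicates differed 4.60-fold, 4.61-fold and 4.09-fold. Libraries did not overlap for 8 of the 9 genes, against 66.0% of all genes, and the median was 1.90 against -0.00499. The 6 calls held in each of the 4 fits that left out a library. Ighm also passed without sick KD replicate 2 (2.96) or old KO replicate 2 (2.06), Ighg2b without sick KD replicate 1 (3.25) or old KO replicate 2 (2.03), and Ighg2c without old KO replicate 2 (2.56).

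**Figure D2:**
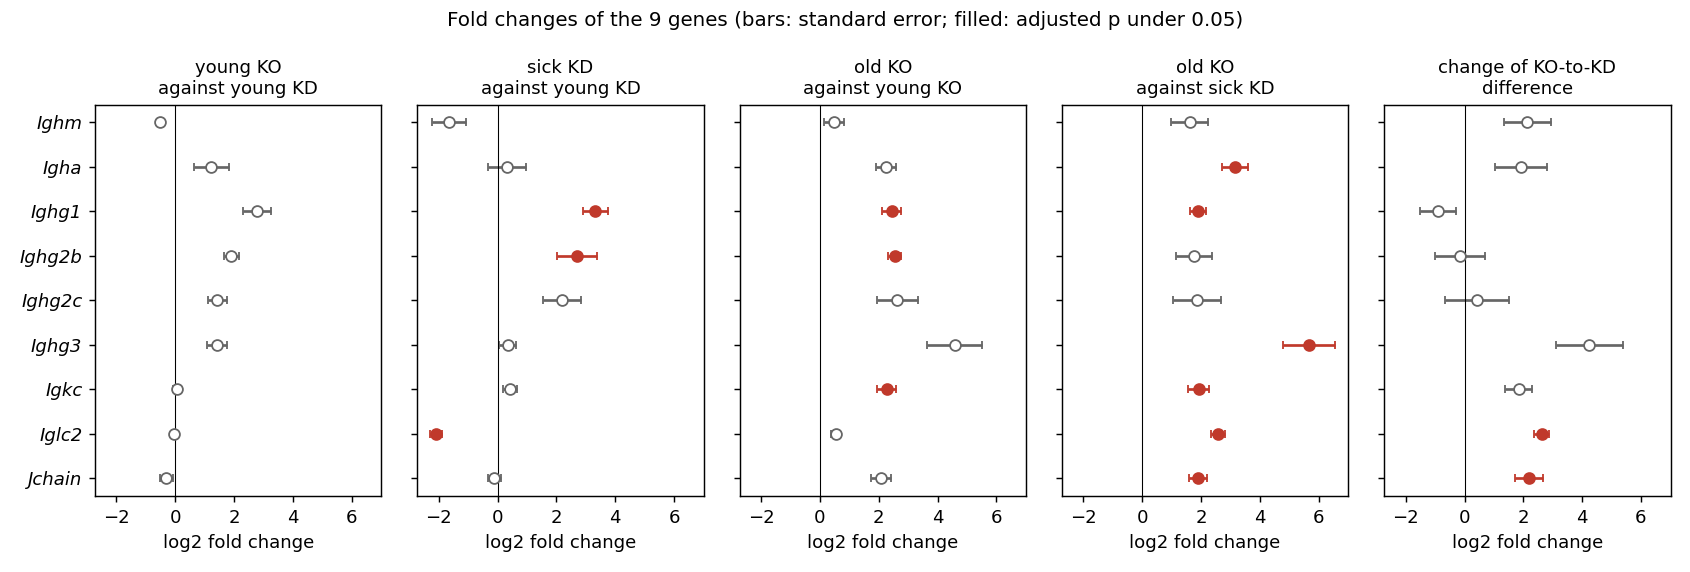
Log2 fold change of each gene in the 4 comparisons and in the test of their difference, with the standard error as bars and filled points for an adjusted p under 0.05. All 9 points lie right of 0 in old KO against sick KD and in old KO against young KO, while in sick KD against young KD they lie from -2.09 for Iglc2 to 3.32 for Ighg1.

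The older KD mice were sick and the older KO mice healthy, so disease and age cannot be told apart in the next test. An interaction term, fitted over all 8 libraries, asked whether KO differed from KD by another amount in the older groups than in the young groups. It was larger in the older mice for Iglc2 (2.62 ± 0.26, adjusted p = 0.00769) and Jchain (2.19 ± 0.47, adjusted p = 0.0352), so 2 of the 9 genes passed upward and none downward, beside 4.32% and 3.11% of 15102 genes. Igkc (1.84 ± 0.46, adjusted p = 0.0505) and Ighg3 (4.25 ± 1.14, adjusted p = 0.0608) did not pass, nor did Ighm (2.13 ± 0.80, adjusted p = 0.132) or Igha (1.92 ± 0.87, adjusted p = 0.198). Ighg1 (-0.89 ± 0.61, adjusted p = 0.381) did not pass either. For Ighg2b (-0.15 ± 0.84, adjusted p = 0.929) and Ighg2c (0.42 ± 1.10, adjusted p = 0.837) the errors were larger than the size of the estimates. The median was 1.92 over the 9 genes and 0.000447 over all genes. Iglc2 passed in each of the 8 fits without one library, and Jchain only in the fit without old KO replicate 2.

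The balance of isotypes was read within each library, as the share of heavy-chain constant counts that fell on the 5 switched genes. In young KD that share was 9.07% (exact 95% binomial interval 8.83% to 9.31%) and 10.9%, and in young KO it was 35.8% and 35.0%. In old KO it was 69.6% and 72.3%. The 3 healthy groups were therefore ordered without overlap, with replicates at most 2.69 percentage points apart. In sick KD the share was 88.0% (87.7% to 88.4%) in the mouse of 187 days and 33.6% (33.0% to 34.1%) in the mouse of 78 days, so a mean of 60.8% ± 38.5 (SD, n = 2) describes neither. With 2 mice per group an exact two-sided permutation test of such a share cannot go below p = 0.333. These intervals and those of the other shares cover counting error only.

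Ighg2b was the most counted switched gene in each of the 8 libraries, holding 33.5% to 53.1% of switched counts. Its exonic sequence is longer than that of Ighg2c (2678 against 1326 bases). Per kb, Ighg2c stood above Ighg2b except in old KO replicate 2 (236 against 389 CPM per kb) and young KO replicate 1 (71.2 against 88.9). By counts, the next place varied. Ighg1 took 25.8% of switched counts in old KO replicate 2 and 28.8% in sick KD replicate 2, but 8.73% in old KO replicate 1 and 5.37% in young KD replicate 1. Ighg3 took 9.18% and 2.63% in old KO against 0.369% and 1.13% in sick KD, and Igha took 7.50% and 7.68% in old KO against 2.98% and 4.75% in sick KD. The old KO and sick KD libraries did not overlap for either.

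**Figure D3:**
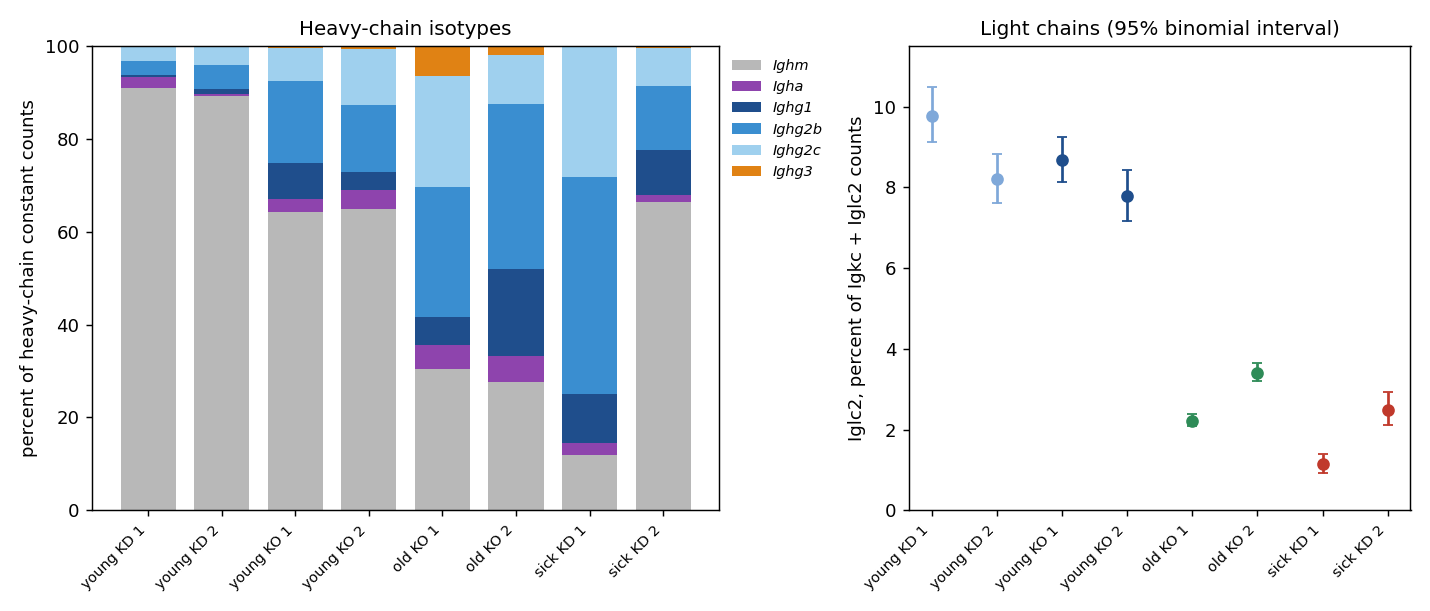
Left, percent of heavy-chain constant counts held by each gene in each library. Right, percent of Igkc plus Iglc2 counts that fell on Iglc2, with exact 95% binomial intervals. Ighm held 90.9% and 89.1% in young KD, 64.2% and 65.0% in young KO, 30.4% and 27.7% in old KO, and 12.0% and 66.4% in sick KD.

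The share of Iglc2 in the counts of Igkc plus Iglc2 separated the young libraries from the old KO and sick KD libraries. The other lambda constant genes could not be matched, so the whole lambda share was not measured. Iglc2 made up 9.78% and 8.21% of Igkc plus Iglc2 counts in young KD and 8.68% and 7.78% in young KO, which overlapped. It made up 2.22% and 3.41% in old KO and 1.14% (0.924% to 1.40%) and 2.50% in sick KD, all below the young libraries. The lower share went with higher Igkc in old KO and with lower Iglc2 in sick KD. Heavy-chain counts per count of Igkc plus Iglc2 were 6.11 to 7.59 in the 4 young libraries and 4.22 to 4.89 in the other 4.

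As a share of all counts on genes, the 9 genes together held 0.172% and 0.197% in young KD, 0.170% and 0.185% in young KO, 0.783% (0.779% to 0.786%) and 0.386% in old KO, and 0.167% and 0.123% in sick KD. The 4 young libraries were close to each other and overlapped, and old KO was above all others. The immunoglobulin variable genes were counted separately, with 344 and 400 CPM (without TMM scaling) in young KD, 426 and 444 in young KO, 2237 and 1156 in old KO, and 654 and 384 in sick KD. Old KO was above all others here too, but young KO was clear of young KD, and sick KD replicate 1 lay above every young library although its constant gene share lay below them.

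The promoter of Jchain is shown because Jchain is a gene of IgM-, IgA- and IgG-secreting cells alike and was the only one of the 9 genes matched in the RefSeq promoter table. The window runs from 250 bases before to 50 bases after the start of the gene on the minus strand (chr5:88527848-88528147, GRCm38.p6), and capitals mark each CANNTG, the letters of an E-box.
Jchain: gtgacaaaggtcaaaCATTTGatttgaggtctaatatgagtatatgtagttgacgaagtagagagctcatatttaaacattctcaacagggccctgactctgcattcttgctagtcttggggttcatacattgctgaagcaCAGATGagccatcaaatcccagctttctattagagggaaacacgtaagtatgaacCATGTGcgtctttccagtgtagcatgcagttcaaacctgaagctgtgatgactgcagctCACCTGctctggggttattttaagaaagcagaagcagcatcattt
It held CANNTG 4 times on either strand, and 72.3% of the 32851 promoter windows held it at least once. GGAA, the core letters of an ETS site, occurred 2 times and was present in 96.0% of windows, and the octamer ATTTGCAT, held by 1.74% of windows, was not in this window. Jchain lies 19.2 Mb from Gfi1 on chromosome 5. Per count of Ighm, Jchain had 0.0683 and 0.105 counts in young KD, 0.0959 and 0.106 in young KO, 0.307 and 0.319 in old KO, and 0.659 and 0.156 in sick KD, so that this ratio was higher in each old or sick library than in any young one.

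The genes of plasma cell differentiation and secretion did not move as a block. Of 20 listed genes, none passed in the young comparison. In old KO against sick KD 8 rose and none fell (median 0.86, where 9.93% of all genes rose and 8.22% fell). In old KO against young KO 1 fell (median 0.15, where 0.606% of all genes fell). In sick KD against young KD 2 rose and 6 fell (median -0.24, where 9.45% of all genes rose and 11.4% fell), so the rising share was close to that of all genes. Between old KO and sick KD the largest rises were Tent5c, which stabilises immunoglobulin mRNA (2.70 ± 0.25, adjusted p = 0.00395), the surface receptor Slamf7 (2.17 ± 0.30, adjusted p = 0.00686) and Sdc1, the plasma cell surface marker CD138 (1.80 ± 0.29, adjusted p = 0.0103). Sdc1 stood at 15.4 and 15.8 CPM in young KD, 17.0 and 14.8 CPM in young KO, 32.9 and 24.5 CPM in old KO, and 6.02 and 10.5 CPM in sick KD. Tent5c stood at 229 and 102 CPM in young KD, 86.6 and 214 CPM in young KO, 313 and 195 CPM in old KO, and 35.1 and 43.1 CPM in sick KD. Thus the old KO libraries were the highest for Sdc1, while for Tent5c they overlapped young KO and young KD. Erythroid markers moved with Tent5c: Alas2, the heme synthesis enzyme of red cell precursors, stood at 245 and 92.6 CPM in young KD, 87.3 and 215 CPM in young KO, 320 and 186 CPM in old KO, and 35.8 and 59.3 CPM in sick KD, and the part of these cells in the Tent5c difference was not tested. Irf4, a transcription factor of activated B cells and plasma cells, stood at 65.4 and 54.6 CPM in old KO against 90.6 and 113 CPM in young KO, which differed by -0.77 ± 0.15 (adjusted p = 0.118).

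In sick KD against young KD, Pou2af1, a B-cell coactivator (-3.59 ± 0.44, adjusted p = 0.00635), Slamf7 (-2.95 ± 0.20, adjusted p = 0.00262) and Irf4 (-2.82 ± 0.21, adjusted p = 0.00327) fell. Xbp1, the secretory transcription factor (0.58 ± 0.11, adjusted p = 0.0162), and Ssr4, a subunit of the translocon-associated complex (0.55 ± 0.11, adjusted p = 0.0183), rose. Both are also expressed outside the B lineage, and Xbp1 stood at 264 to 409 CPM over the 8 libraries. Pou2af1 was the gene that fell in old KO against young KO (-1.67 ± 0.18, adjusted p = 0.0297).

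B-cell genes went the other way from the constant genes in old KO. Of 24 genes of mature B cells and the B-cell receptor, 14 fell and none rose in old KO against young KO (median -1.47). There, 0.606% of all genes fell. In sick KD against young KD 20 of the 24 fell and none rose (median -3.07), where 11.4% of all genes fell. In old KO against young KO the largest falls were Ebf1 (-2.51 ± 0.27, adjusted p = 0.0297), a B-lineage transcription factor, Spib (-2.42 ± 0.30, adjusted p = 0.0363), an ETS factor, and the surface receptor Cd72 (-2.28 ± 0.19, adjusted p = 0.0182). Cd79a, the signalling chain that IgM needs on the surface, stood at 71.7 and 59.4 CPM in young KD, 49.8 and 59.4 CPM in young KO, 10.8 and 17.2 CPM in old KO, and 2.22 and 6.83 CPM in sick KD. Old KO thus had less Cd79a than either young group in each library and more Igkc, Jchain and switched heavy chains. Old KO against sick KD had 10 genes of this list higher and 1 lower, beside 9.93% and 8.22% of all genes. The largest rises were Fcer2a (2.59 ± 0.29), Fcmr (2.27 ± 0.30) and Cr2 (2.24 ± 0.33), surface receptors of mature B cells. Cd38 was lower (-1.34 ± 0.26).

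In sick KD against young KD the largest falls of that list were Spib (-4.72 ± 0.54), Cd72 (-4.35 ± 0.56) and Blnk (-3.97 ± 0.38), an adaptor of the B-cell receptor, with adjusted p-values of 0.00414 to 0.00751. Genes of the surrogate light chain and of V(D)J recombination mark B-cell precursors that do not yet make a complete antibody. The list named after them also held Il7r, Lef1, Bcl7a, Smarca4 and Tcf3, which are neither. All 12 genes of the list fell in sick KD against young KD (median -3.71), beside 11.4% of all genes. In old KO against young KO 5 of 12 fell (median -2.06), beside 0.606% of all genes. The recombinase gene Rag1 had -5.91 ± 0.80 (adjusted p = 0.00820) in the former, and the surrogate light chain gene Vpreb1 had -2.42 ± 0.27 (adjusted p = 0.0303) in the latter. Vpreb1 was at 0.242 CPM in sick KD replicate 1 and 2.28 CPM in replicate 2, and replicate 1 also had the lower Ighm.

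**Figure D4:**
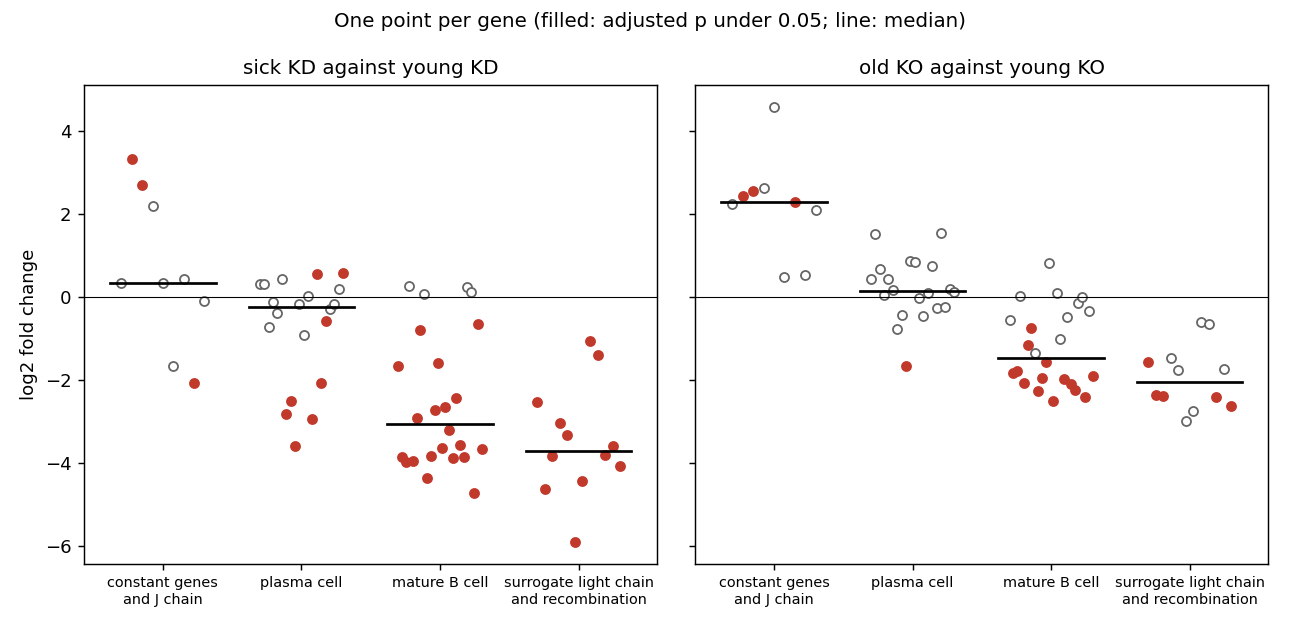
Log2 fold change of each gene, 1 point per gene, for the 9 constant and J chain genes and for 3 lists of B-lineage genes, with filled points for an adjusted p under 0.05 and the median as a line. In old KO against young KO the median was 2.27 for the constant and J chain genes. It was -1.47 for the mature B-cell list and -2.06 for the surrogate light chain and recombination list.

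For the class switch machinery, none of the 21 or 22 genes tested passed in young KO against young KD or in old KO against young KO. In sick KD against young KD 2 of 21 genes rose and 7 fell (9.45% and 11.4% of all genes), and in old KO against sick KD 5 rose and 4 fell (9.93% and 8.22% of all genes). Largest among the falls in sick KD were the end-joining genes Xrcc5 (-1.75 ± 0.31, adjusted p = 0.0158), Lig4 (-1.24 ± 0.20, adjusted p = 0.0123) and Xrcc6 (-1.18 ± 0.11, adjusted p = 0.00414), which serve DNA repair in all cells.

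Of 11 receptors of antibody tested, 7 were higher and 2 lower in old KO against sick KD (9.93% and 8.22% of all genes), and 5 rose and 3 fell in sick KD against young KD (9.45% and 11.4% of all genes). Fcgr1, the high-affinity IgG receptor, was higher in old KO (0.97 ± 0.15, adjusted p = 0.00955), while Fcgr4 (-0.70 ± 0.18, adjusted p = 0.0401) and the shared signalling chain Fcer1g (-0.61 ± 0.17, adjusted p = 0.0451) were higher in sick KD. Pigr, which carries polymeric IgA and IgM across epithelium, was at or near 0 in all libraries, at no more than 0.159 CPM.

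Signals that direct switching and keep plasma cells alive gave 4 higher and 1 lower of 15 genes tested in old KO against sick KD (9.93% and 8.22% of all genes), and 4 higher and 4 lower in sick KD against young KD (9.45% and 11.4% of all genes). Cxcl12, the stromal chemokine that holds plasma cells in marrow, was higher in old KO than in sick KD (2.64 ± 0.29, adjusted p = 0.00496), at 91.6 and 54.8 CPM against 14.2 and 9.39 CPM. The young libraries had 38.6 to 64.3 CPM of Cxcl12. The T-cell costimulator Icos (2.03 ± 0.36, adjusted p = 0.0134) and Cd40 (1.75 ± 0.39, adjusted p = 0.0265), the receptor through which T cells instruct B cells, were also higher. Cd40 stood at 13.1 and 12.7 CPM in old KO, within the 11.7 to 14.5 CPM of the young libraries. In sick KD against young KD, Cxcl12 (-2.17 ± 0.20, adjusted p = 0.00414) and Cd40 (-1.62 ± 0.38, adjusted p = 0.0322) fell. Tnfsf13, the survival factor APRIL, rose in sick KD against young KD (0.77 ± 0.18, adjusted p = 0.0314), at 9.04 and 8.61 CPM against 5.11 and 5.22 CPM. The healthy old KO libraries had more Tnfsf13 than sick KD, at 14.3 and 11.6 CPM, and young KO had 7.14 and 6.85 CPM. None of these genes passed in old KO against young KO or in the young comparison.

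Markers of other marrow cells moved along with these differences, and their part in them was not tested. All 8 erythroid markers were higher in old KO than in sick KD, with summed levels of 3050 to 4664 CPM against 658 to 1007 CPM. Over all genes of that comparison, 9.93% were higher and 8.22% lower in old KO. T-cell markers (6 of 8 higher) summed to 55.3 to 61.9 CPM in old KO against 16.5 to 25.6 CPM in sick KD, and stromal markers (2 of 5 higher) to 35.5 to 70.5 CPM against 10.4 to 14.8 CPM. The 10 neutrophil and monocyte markers, of which 3 of 9 tested were lower in old KO, summed to 6696 to 8130 CPM in old KO against 10359 to 11829 CPM in sick KD. None of these markers was at 0 in any library. In sick KD against young KD all 8 erythroid, 3 of 8 T-cell and 4 of 5 stromal markers fell, beside 11.4% of all genes. There, 4 of 10 neutrophil and monocyte markers rose, beside 9.45% of all genes. Between old KO and young KO none of the erythroid, T-cell or stromal markers passed. Of 9 neutrophil and monocyte markers tested, 2 fell, beside 0.606% of all genes.

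Among the genes whose log2 CPM followed Ighm most closely over the 8 libraries, out of 14828 genes, were Tyw1, Stk40, Itpkc and Ccdc9, with Pearson correlations of 0.980 to 0.973. For the mean of the switched heavy chains and Jchain they were Trbv19, Epcam, Ptgdr2, Tnfsf13 and 6330403L08Rik, with 0.957 to 0.946. These values describe 8 libraries in 4 groups, which share whatever else separates the groups, and of the second set only Tnfsf13 exceeded 4 CPM in any library.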

How the data were processed

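Polyadenylated RNA of total bone marrow was sequenced from 8 mice with a stranded kit. Per the study and its processing notes, the authors aligned reads to mm10 with TopHat2 2.0.10, counted them against Ensembl genes using HTSeq, and the deposited files hold raw counts, 1 mouse per file, neither normalized nor pooled. The Ensembl release and strand setting are not given in the sources used here. Here, 40340 of 41214 identifiers were matched to GENCODE M21 on GRCm38, and the 5 tally rows of each file were left out of library sizes.

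Counts were tested with edgeR 4.0.16 (R 4.3.3, limma 3.58.1) using TMM, filterByExpr and the quasi-likelihood test, with Benjamini-Hochberg adjustment over all genes tested and a threshold of 0.05. Each pairwise comparison was fitted on its own 4 mice and the interaction on all 8. Standard errors were obtained by dividing the size of the log2 fold change by the root of its F statistic. The code was tested on simulated data. CPM are TMM-scaled, and correlations used log2(CPM + 1). Shares carry exact (Clopper-Pearson) 95% intervals. The replicates were separate mice.

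The genes and lists were chosen with earlier results of these data known. Within a list, up to 3 genes in each direction with the largest change among those past the threshold were named, or the most abundant where none passed. Sdc1, Irf4, Cd79a, Pigr, Vpreb1 and Xbp1 values, Fcgr1, Tnfsf13 and the counts of overlapping libraries were added for description. Some items that these rules would name are not reported here. Alternatives were DESeq2 1.42.0, RLE scaling, filters of 1 and 10 counts, library sizes without immunoglobulin genes, removal of GC content and length trends, all 8 mice in 1 fit, and leaving out each mouse.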

Additional observations from a re-analysis of the deposited data

Results flagged for a closer look

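The gap between KO and KD was of another size in the older groups than in the young groups, by the interaction test of edgeR over all 8 libraries, for 2 of the constant and J chain genes. The older KD mice were the sick ones, so disease and age cannot be told apart here. Iglc2 had an interaction of 2.62 on the log2 scale (adjusted p = 0.00769), with the sick KD libraries below the other 6. Jchain had 2.19 (adjusted p = 0.0352), with the old KO libraries above the other 6.

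The same test passed for 14 genes of the lists when at most 3 per list and direction were named. Other list genes passed too, among them Irf4 (2.04), Sdc1 (1.76), Blnk (2.18) and Tnfrsf17 (1.82). In the plasma cell list, Tent5c had 2.84, Slamf7 2.49 and Mzb1 2.07. The erythroid markers Klf1 (2.68, adjusted p = 0.0258) and Alas2 (2.57, adjusted p = 0.0786) had interactions close to that of Tent5c, and their part in it was not tested. Among B-cell surface receptors, Fcer2a had 2.74, Cr2 2.39, Fcmr 2.21 and Cd38 -1.44. In the class switch list, Xrcc5 had 1.63, Msh6 0.71, Xrcc6 0.60 and Xrcc4 -0.76. Among antibody receptors and signals, Trim21 had 0.53, Cxcl12 2.67 and Icos 2.11. Adjusted p-values of the 14 genes named by that rule ran from 0.00947 (Fcer2a) to 0.0488 (Xrcc4). Groups of 2 are too small to look for single outlying samples.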

How the results depend on the processing

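Of the 9 genes, 6 passed in old KO against sick KD, and 6 to 9 passed under every alternative run. In young KO against young KD the count of 0 became 3 with DESeq2, 6 with a filter of 1 count in any mouse, and 0 to 1 on leaving out single mice. In sick KD against young KD the count of 3 became 5 with the 1-count filter and 3 to 6 on leaving out single mice. In old KO against young KO the count of 3 became 6 with DESeq2, 8 with the 1-count filter, 2 with the 10-count filter, with library sizes without immunoglobulin genes, with GC content and length trends removed or with all 8 mice in 1 fit, and 0 to 8 on leaving out single mice (0 without young KO replicate 2, 8 without old KO replicate 2). The interaction count of 2 became 4 with DESeq2, 7 with the 1-count filter and 1 to 4 on leaving out single mice. The cause of these shifts was not tested. With the 1-count filter the genes passing over the whole table also rose, to 119 in the young comparison and 796 in old KO against young KO. Of 522 alternative fold changes, 434 kept direction and side of the threshold, 58 newly passed, 17 no longer passed and 13 changed sign, all 13 on leaving out a mouse. Leaving out single mice gave, in the young comparison, -0.11 to 0.29 for Igkc, -0.12 to 0.0155 for Iglc2 and -0.61 to 0.0932 for Jchain. It gave -0.38 to 1.70 for Igha and -0.43 to 0.27 for Jchain in sick KD against young KD, and -0.17 to 0.92 for Ighm in old KO against young KO. In the interaction it gave -0.88 to 1.33 for Ighg2b and -0.99 to 1.91 for Ighg2c. Only Igha, Ighg1, Ighg3, Igkc, Iglc2 and Jchain in old KO against sick KD, Ighg1 and Iglc2 in sick KD against young KD, and Iglc2 in the interaction passed in every fit.

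Shares moved beyond 1 SD as follows. With all unique alignments as denominator the share of the 9 genes was 0.0856% in sick KD, 0.125% in young KO and 0.126% in young KD. Per length, the switched share was 68.4% in old KO and 33.1% in young KO, and the Iglc2 share 7.23% in young KO. Without Igha the switched share was 33.2% in young KO and 8.64% in young KD. The order of the groups was that of the main values. Leaving out a mouse leaves the value of the other, given in the report.

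The plan to leave Ighd out of the unswitched side and to add the other lambda constant genes was not run, because those genes were not matched. No paired analysis was possible because the labels number mice individually, with no number shared between groups. The lowest count of any of the 9 genes in a library was 83, so the small number of mice limits precision more than depth does.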

Other observations

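Ighe, the heavy chain of IgE, was not among the listed genes and was counted rarely. Ighe had 1 and 1 counts in young KD, 4 and 9 in young KO, 31 and 23 in old KO, and 22 and 5 in sick KD. It passed in none of the comparisons in which it was tested (old KO against young KO 2.23 ± 0.62, adjusted p = 0.284). Derl3 and Tnfrsf17 (BCMA), genes typical of plasma cells and chosen here after their values were seen, stood at 5.99 and 4.06 CPM and at 1.76 and 1.38 CPM in old KO. The other 6 libraries had at most 1.99 CPM of Derl3 and 0.579 CPM of Tnfrsf17. Neither passed in old KO against young KO (Derl3 1.52 ± 0.29, adjusted p = 0.120, and Tnfrsf17 1.53 ± 0.31, adjusted p = 0.131).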
